A study of Homo sapiens with 6 samples.

Results

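The SERPINA family was examined through 9 genes, SERPINA1, SERPINA3, SERPINA4, SERPINA5, SERPINA6, SERPINA7, SERPINA10, SERPINA11 and AGT, taken by name from a table of 79172 gene names. Of the 9, 6 had enough counts to be tested among 16734 genes. The cells were Huh7, an established human hepatocellular carcinoma line. RNA-seq was made from 3 control libraries and 3 libraries of cells overexpressing HK1, the gene of hexokinase 1, an enzyme that phosphorylates glucose. How HK1 was introduced, whether the overexpressing cells were 1 clone, and what the controls received are not given in the sources used here.

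Serpins are protease inhibitors that act as molecular bait. The protease cleaves an exposed loop, the serpin changes shape, and the protease is trapped in a covalent complex. Clade A is largely made by the liver and secreted into plasma. Some of its members inhibit proteases of inflammation and coagulation, some have lost inhibition and carry hormones, and angiotensinogen is a peptide precursor.

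HK1 had 13, 15 and 13 counts in control replicates 1, 2 and 3, and 9723, 10602 and 11101 in HK1-overexpressing replicates 1, 2 and 3, so the labels matched the overexpressed gene. Library totals ran from 16771835 to 20823072 counts. Pairs of libraries within a group differed by more than sampling noise, with a chi-square per degree of freedom of 5.08 to 11.3 between controls and 1.58 to 2.28 between HK1-overexpressing libraries. The labels do not say that replicates were separate cultures, so p-values reflect no more than how far these libraries differ, and that spread may be technical. All 9 hepatocyte markers were detected well enough to be tested. Cholangiocyte markers were present too, with 3 of 4 tested. KRT19 was at 295.3 ± 11.7 CPM in controls against 300.7 ± 11.3 CPM in HK1-overexpressing libraries (SD, n = 3 each). It did not pass (edgeR adjusted p = 0.81), nor did EPCAM (edgeR adjusted p = 0.543). SOX9 fell from a mean of 63.9 CPM in controls to 50.2 CPM in HK1-overexpressing libraries (edgeR adjusted p = 0.00467). Of 4 endothelial markers 1 was tested, PECAM1, at 5.16 ± 1.09 CPM in controls against 5.06 ± 0.583 CPM in HK1-overexpressing libraries, while CDH5 and KDR had 0 counts throughout. Of 4 leukocyte markers 1 was tested, CD14, at 3.46 ± 0.268 against 3.30 ± 0.384 CPM, while PTPRC averaged 0.0565 ± 0.00552 against 0.114 ± 0.0322 CPM (SD, n = 3 each). Neither PECAM1 nor CD14 passed (edgeR adjusted p = 0.964 for PECAM1 and 0.84 for CD14). The stellate cell or fibroblast markers had 1 of 4 tested, DES, which did not pass (log2 1.17, edgeR adjusted p = 0.0781).

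Of the 9 genes, 7 lie in a cluster on chromosome 14 from 94280460 to 94624055 (hg38). SERPINA10 (94280460 to 94293268), SERPINA6 (94304248 to 94323389), SERPINA1 (94376747 to 94390693) and SERPINA11 (94442464 to 94452800) are on the minus strand. SERPINA4 (94561442 to 94569913), SERPINA5 (94561442 to 94593118) and SERPINA3 (94612384 to 94624055) are on the plus strand. SERPINA7 lies on chromosome X from 106032435 to 106038727 and AGT on chromosome 1 from 230690776 to 230745576, both on the minus strand. All are protein-coding, and the counts cover their exons, untranslated parts included.

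The 250 bases before a RefSeq transcription start are shown for AGT, the gene that passed the test, for SERPINA7, the other member with TATA box letters, and for SERPINA1, an inhibitor without them (GRCh38.p14, RefSeq). Capitals mark TATAAA or its reverse complement TTTATA, and each sequence reads 5′ to 3′ on the gene's own strand. The windows are chr1:230714123-230714372 for AGT, chrX:106038728-106038977 for SERPINA7 and chr14:94388603-94388852 for SERPINA1. The AGT start and this SERPINA1 start lie within the longer spans that the counted annotation gives those genes. Another RefSeq window of SERPINA1, chr14:94390636-94390885, is not shown and held no TATA box letters either.
AGT: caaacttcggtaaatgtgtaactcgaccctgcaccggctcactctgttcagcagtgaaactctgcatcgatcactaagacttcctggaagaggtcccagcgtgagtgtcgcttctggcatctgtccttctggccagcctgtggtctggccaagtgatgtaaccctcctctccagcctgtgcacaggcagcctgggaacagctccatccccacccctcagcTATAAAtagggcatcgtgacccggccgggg
SERPINA7: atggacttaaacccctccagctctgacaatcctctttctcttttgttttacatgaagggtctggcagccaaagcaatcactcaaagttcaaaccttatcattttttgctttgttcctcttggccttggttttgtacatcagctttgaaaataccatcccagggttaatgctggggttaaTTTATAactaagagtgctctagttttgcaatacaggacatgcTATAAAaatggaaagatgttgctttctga
SERPINA1: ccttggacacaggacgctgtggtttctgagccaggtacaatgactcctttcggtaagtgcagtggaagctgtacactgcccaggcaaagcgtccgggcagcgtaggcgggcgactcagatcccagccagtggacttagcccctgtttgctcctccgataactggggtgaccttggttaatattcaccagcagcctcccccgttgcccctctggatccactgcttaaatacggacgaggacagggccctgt

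RefSeq windows were found for all 9 genes, 11 in all, and 2 genes had the TATA box letters. They began 30 bases before the AGT start and 29 bases before that of SERPINA7, with TTTATA also at 71 in SERPINA7. Of 35116 RefSeq windows of the same length, 10.7% held them on either strand and 2.05% held them more than once. The STAT letters TTCNNNGAA, which overlapped no TATA match, stood 170 bases before the AGT start, 195 before that of SERPINA6, 220 before that of SERPINA5 and 47 before that of SERPINA11, and 6.57% of all windows held them. The C/EBP letters TTGCNNAA, searched on both strands, stood 49 bases before the SERPINA7 start and 217 before a SERPINA10 start, and 9.05% of all windows held them. A match of letters does not show that a factor binds.

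The deposited counting limits what can be read for some of these genes. SERPINA1, SERPINA6 and SERPINA10 have exons both on chromosome 14 and on KI270847.1, an alternate sequence of the same region in the annotation the authors counted with. Of 30 chromosome 14 genes with exons on that sequence, 15 had a count of 0 in every library. Among the protein-coding ones, 6 of 21 (28.6%) were tested, against 358 of 501 (71.5%) of the chromosome 14 protein-coding genes with no alternate sequence, and the median level was 0.0855 CPM against 12.8 CPM. SERPINA1 had the highest level of them, and without it the highest was 5.55 CPM. The sources used here do not give whether the reads were aligned to a genome with alternate sequences, and its part in the levels of these 3 genes was not tested.

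**Figure D1:**
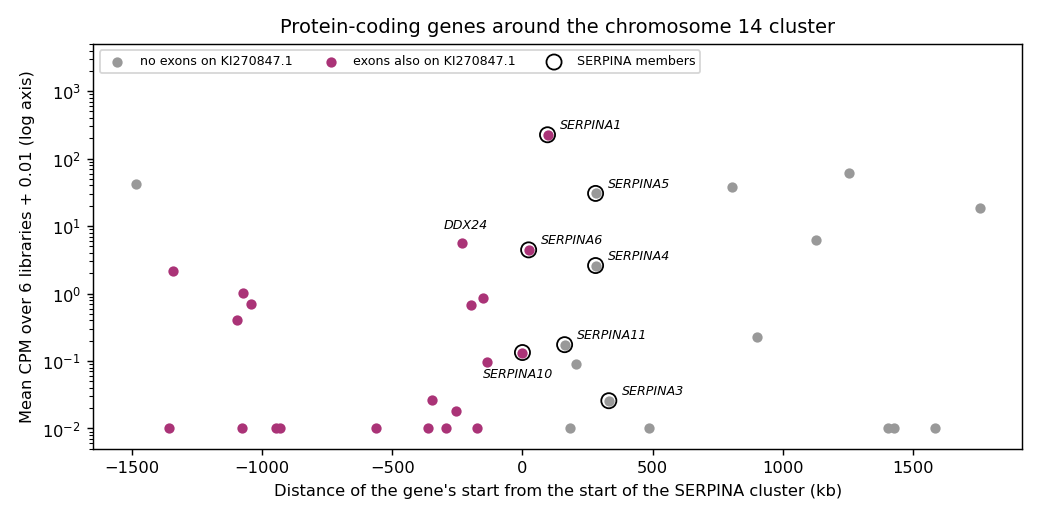
Mean level over 6 libraries (CPM plus 0.01, log axis) of protein-coding genes against the distance of their start from the start of the SERPINA cluster on chromosome 14, in kb. Purple points have exons also on the alternate sequence and lie at or below 5.55 CPM apart from SERPINA1, and circles mark the members of the cluster.

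No option for strand or for overlapping genes was set in the counting. Reads over exon bases that genes share may therefore be missing from the counts of each. SERPINA5 shared 39.8% of its exon bases with other genes, nearly all with the antisense gene ENSG00000294537, and SERPINA3 shared 43.4%, of which most lay in the read-through gene ENSG00000273259. AGT shared 8.87% with COG2 on the opposite strand. SERPINA4 and SERPINA5 shared 53 bases. The other members shared 2.50% or less.

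Across all tested genes, 1342 (8.02%) differed between the groups at an edgeR adjusted p of 0.05 or less, 648 higher (3.87%) and 694 lower (4.15%) in HK1-overexpressing cells. With library totals in place of TMM the split was 907 higher and 462 lower. Of the 6 tested serpins, 1 was lower, AGT, and 0 were higher. The other 5 did not pass, although 4 of the 6 had an unadjusted p under 0.05. The groups did not overlap in 3 of the 6, AGT, SERPINA1 and SERPINA4, where 27.8% of all tested genes had groups that did not overlap. The median log2 fold change was -0.41 over the 6 and 0.0063 over all tested genes. None passed a test against a fold of 1.5, which 0.287% of all tested genes did, and none passed against a fold of 1.2. The share lower, 1 of 6 (16.7%), rests on a single gene and is read as no property of the family.

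**Figure D2:**
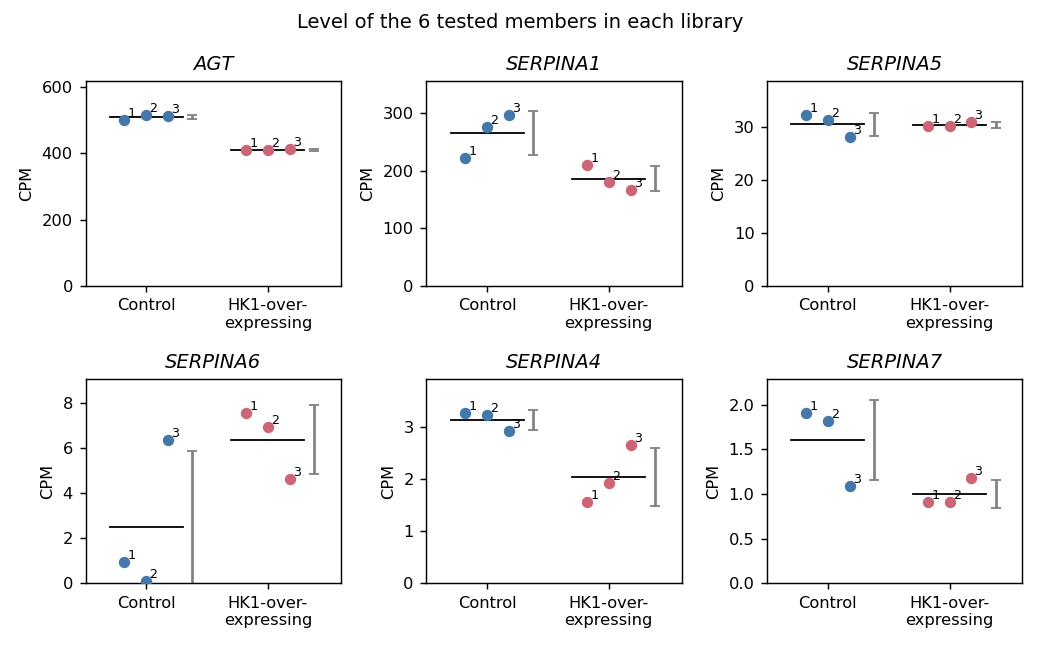
Level in CPM of the 6 tested genes in each library, numbered by replicate, with the group mean as a line and the SD as a grey bar (cut at 0 for SERPINA6). The AGT groups are far apart for their spread, those of SERPINA1 and SERPINA4 are apart but wide, those of SERPINA5 and SERPINA7 overlap, and control replicate 3 of SERPINA6 lies among the HK1-overexpressing libraries.

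AGT encodes angiotensinogen, the precursor of angiotensin II, a peptide regulator of blood pressure. Its level was 502.2, 515.6 and 513.3 CPM in control replicates 1, 2 and 3 and 409.4, 409.2 and 412.6 CPM in HK1-overexpressing replicates 1, 2 and 3. Every HK1-overexpressing library was below every control, and both groups were tight. The mean fell from 510.4 ± 7.17 to 410.4 ± 1.91 CPM (SD, n = 3 each), a change of -19.6% (log2 -0.31, SE 0.0433, edgeR adjusted p = 0.000412 by its quasi-likelihood test). The fold was 0.804, with an approximate 95% interval of 0.758 to 0.853. The fall held in all 16 alternative settings, with log2 values from -0.321 to -0.275. COG2, which overlaps it on the other strand, had 515 to 688 counts against 8127 to 9989 for AGT, and its difference (log2 -0.16) missed the threshold (edgeR adjusted p = 0.222). In bulk RNA, fewer cells of a type and less RNA per cell cannot be told apart.

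Several peptidases that process angiotensins were expressed in these cells, whereas ACE was near 0. Of 15 listed genes of the angiotensin pathway 9 were tested, with 2 higher and 0 lower (22.2% against 8.02% of all genes, median log2 0.081). ACE, which makes angiotensin II, was at 0.0928 ± 0.0291 CPM in controls against 0.0328 ± 0.0284 CPM in HK1-overexpressing libraries (SD, n = 3 each). The receptor genes AGTR2 and MAS1 had 0 counts throughout, where the limit of 3 counts is 0.142 to 0.182 CPM depending on the library. AGTR1, the main receptor of angiotensin II, was at 6.75 ± 0.478 and 6.19 ± 0.348 CPM and did not pass (edgeR adjusted p = 0.567).

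Both genes that rose encode lysosomal serine carboxypeptidases able to trim angiotensin peptides. CTSA rose from 366.5 ± 21.6 to 433.0 ± 9.63 CPM (log2 0.24, edgeR adjusted p = 0.00965) and PRCP from 39.8 ± 1.43 to 46.2 ± 1.61 CPM (log2 0.22, edgeR adjusted p = 0.0479; SD, n = 3 each). The count fell to 0 without any 1 HK1-overexpressing replicate and to 1 without control replicate 3. The adjusted p over all alternatives reached 0.0782 for CTSA and 0.217 for PRCP.

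SERPINA1 encodes alpha-1-antitrypsin, the main plasma inhibitor of neutrophil elastase. Its level was 222.3, 276.5 and 296.6 CPM in control replicates 1, 2 and 3 and 210.3, 181.0 and 166.9 CPM in HK1-overexpressing replicates 1, 2 and 3. The groups did not overlap, but control replicate 1 and HK1-overexpressing replicate 1 lay close together. The means were 265.1 ± 38.5 and 186.0 ± 22.2 CPM (SD, n = 3 each; log2 -0.51, SE 0.129), and the difference did not pass (edgeR adjusted p = 0.0675). It passed in 7 of 16 alternatives, among them those without control replicate 1 (log2 -0.62, edgeR adjusted p = 0.00653) and without HK1-overexpressing replicate 1 (log2 -0.60, edgeR adjusted p = 0.0365), and the adjusted p ran from 4.28e-09 to 0.286 over all of them. The log2 value was below 0 in each, from -0.619 to -0.422. The spread of its log2 level among controls was 0.217, the 78th widest of 1717 tested genes of like level, whose median was 0.0758.

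SERPINA5 encodes the protein C inhibitor, which acts on several serine proteases of coagulation and reproduction. Its level was 32.2, 31.3 and 28.1 CPM in control replicates 1, 2 and 3 and 30.1, 30.1 and 31.0 CPM in HK1-overexpressing replicates 1, 2 and 3. The HK1-overexpressing libraries lay inside the range of the controls. The means were 30.5 ± 2.16 and 30.4 ± 0.525 CPM (SD, n = 3 each; log2 -0.0067, SE 0.0708, edgeR adjusted p = 0.969). The approximate 95% interval of the fold, 0.904 to 1.10, leaves room for changes of about that size, and the sign of the log2 value turned in 7 alternatives. The antisense gene over its exons had 8 to 17 counts, against 463 to 655 for SERPINA5.

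SERPINA4 encodes kallistatin, an inhibitor of tissue kallikrein. It was counted at a low depth, with 65, 55 and 48 counts in control replicates 1, 2 and 3 and 31, 40 and 56 in HK1-overexpressing replicates 1, 2 and 3. In CPM the controls were at 3.27, 3.23 and 2.91 and the HK1-overexpressing libraries at 1.56, 1.92 and 2.65, so the groups did not overlap, with HK1-overexpressing replicate 3 nearest to the controls. The means were 3.14 ± 0.194 and 2.05 ± 0.556 CPM (SD, n = 3 each; log2 -0.61, SE 0.198), and the difference did not pass (edgeR adjusted p = 0.0742). Of the 15 alternatives in which it was tested, it passed without HK1-overexpressing replicate 3 (log2 -0.84, edgeR adjusted p = 0.0429) and in no other, and the adjusted p reached 0.294.

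The other 3 genes had under 10 counts in every library and were not tested. SERPINA10 encodes the protein Z-dependent protease inhibitor, which blocks activated factor X. It had 2, 4 and 2 counts in controls, against 0, 1 and 5 in HK1-overexpressing libraries. The ratio of pooled counts, HK1-overexpressing over control, was 0.666, with an exact 95% interval of 0.191 to 2.19 that covers counting error only. SERPINA11, a little-studied member, had 1, 9 and 2 counts in controls, against 1, 2 and 3 in HK1-overexpressing libraries, a ratio of 0.444 (0.137 to 1.28), with most of the control counts in replicate 2. SERPINA3 encodes alpha-1-antichymotrypsin, an acute-phase inhibitor of cathepsin G. It had 0 counts in every control, against 0, 0 and 2 in HK1-overexpressing libraries, at or under the limit of 3 pooled counts, which is 0.0554 CPM in controls and 0.0492 CPM in HK1-overexpressing libraries. No difference could be detected in these 3 genes at this depth.

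The proteases that these inhibitors act on were in part not detected. Of 18 listed proteases and cofactors, 9 had a count of 0 in every library, among them ELANE, neutrophil elastase, CTSG, cathepsin G, and KLK1, tissue kallikrein. Of the 7 tested, 2 rose and 3 fell (71.4% against 8.02% of all genes, median log2 -0.20). F2, prothrombin, fell from 90.3 ± 3.10 to 59.7 ± 2.03 CPM (log2 -0.60, edgeR adjusted p = 1.32e-05), and PROC, protein C, from 13.6 ± 0.695 to 9.22 ± 0.688 CPM (log2 -0.56, edgeR adjusted p = 0.00173; SD, n = 3 each). The plasminogen activators PLAT and PLAU rose, by 0.57 and 0.65 on the log2 scale (edgeR adjusted p = 0.00123 and 0.00439). The third fall was F10, coagulation factor X (log2 -0.24, edgeR adjusted p = 0.0346), a call lost in 9 of 16 alternatives, among them leaving out control replicate 3 or any 1 HK1-overexpressing replicate, with an adjusted p of up to 0.152. The protein C inhibitor showed no detectable change while protein C fell and both plasminogen activators rose.

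Several serpins outside clade A changed, in both directions. Of 24 listed, 13 were tested, with 2 higher and 4 lower (46.2% against 8.02% of all genes, median log2 0.011), and whether that differs from the 1 in 6 of clade A was not tested. SERPINC1, antithrombin, fell from 20.3 ± 0.528 to 9.88 ± 0.688 CPM (log2 -1.04, edgeR adjusted p = 3.3e-06), and SERPIND1, heparin cofactor II, fell by 0.67 on the log2 scale (edgeR adjusted p = 7.97e-06). SERPINE2, protease nexin 1, rose from 248.4 ± 10.3 to 349.6 ± 3.42 CPM (log2 0.49, edgeR adjusted p = 1.72e-05; SD, n = 3 each). The falls were of antithrombin, heparin cofactor II, SERPING1 and SERPINF2, all made by the liver for plasma. Of 4 further clade A genes, SERPINA2, SERPINA9, SERPINA12 and the pseudogene SERPINA13P, 0 were tested and 2 had a count of 0 in every library.

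Both hormone carriers had few counts. SERPINA7 encodes thyroxine-binding globulin, the main carrier of thyroid hormone in plasma. It had 38, 31 and 18 counts in control replicates 1, 2 and 3 and 18, 19 and 25 in HK1-overexpressing replicates 1, 2 and 3, or 1.91, 1.82 and 1.09 CPM and 0.907, 0.914 and 1.18 CPM. Control replicate 3 lay among the HK1-overexpressing libraries, so the groups overlapped. The means were 1.61 ± 0.448 and 1.00 ± 0.158 CPM (SD, n = 3 each; log2 -0.69, SE 0.263), and the difference did not pass (edgeR adjusted p = 0.13, and 0.0671 to 0.337 over 14 alternatives).

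SERPINA6 encodes corticosteroid-binding globulin, the plasma carrier of cortisol. It had 19, 2 and 105 counts in control replicates 1, 2 and 3 and 150, 144 and 98 in HK1-overexpressing replicates 1, 2 and 3, or 0.955, 0.117 and 6.37 CPM and 7.56, 6.93 and 4.64 CPM. Control replicates 1 and 2 were far below all other libraries, and control replicate 3 was above HK1-overexpressing replicate 3. The means were 2.48 ± 3.40 and 6.37 ± 1.53 CPM (SD, n = 3 each; log2 1.41, SE 1.00), and the difference did not pass (edgeR adjusted p = 0.515, and 0.0141 to 0.717 over 15 alternatives). It passed without control replicate 3 alone (log2 3.48, edgeR adjusted p = 0.0141), and leaving out other libraries gave log2 values down to 0.871. The SD of its log2 level among controls was 1.76, the third widest of all 16734 tested genes. DDX24, a neighbour on the same alternate sequence, also varied within both groups, with 95, 224 and 37 counts in controls, against 6, 182 and 86 in HK1-overexpressing libraries.

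Among 14 genes of hormone carriage and response, 10 were tested, with 0 higher and 3 lower (30.0% against 8.02% of all genes, median log2 -0.092). ALB, albumin, which carries hormones with low affinity, fell from 4926 ± 107.5 to 3414 ± 68.5 CPM (log2 -0.53, edgeR adjusted p = 3.26e-06). TTR, transthyretin, the other thyroxine carrier of plasma, fell by 0.28 on the log2 scale (edgeR adjusted p = 0.0139), a call lost when control replicate 3 or any 1 HK1-overexpressing replicate was left out, where the adjusted p reached 0.0985. HSD11B2, which inactivates cortisol, fell from 7.31 ± 0.562 to 4.18 ± 0.216 CPM (log2 -0.81, edgeR adjusted p = 0.000684; SD, n = 3 each). The nuclear receptors for cortisol and thyroid hormone, NR3C1, THRA and THRB, did not pass, with log2 values of -0.018, -0.0089 and -0.061.

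**Figure D3:**
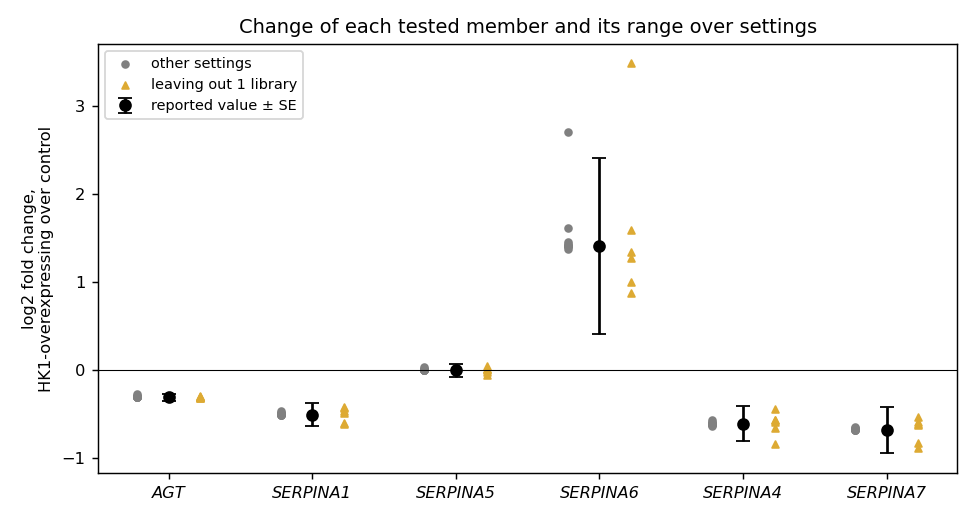
Log2 fold change of each tested gene, HK1-overexpressing over control, with its SE (black), beside the values under other settings (grey) and with 1 library left out (yellow triangles). AGT moved least, between -0.321 and -0.275, and SERPINA6 most, between 0.871 and 3.48.

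Secreted serpins fold in the endoplasmic reticulum and leave it with cargo receptors. Of 20 genes listed for folding and export, 19 were tested, with 0 higher and 2 lower (10.5% against 8.02% of all genes, median log2 -0.036). HSPA5, which encodes the chaperone BiP, fell from 1576 ± 29.6 CPM in controls to 1277 ± 21.9 CPM (log2 -0.30, edgeR adjusted p = 0.00047), and PDIA4, a disulphide isomerase, from 505.3 ± 7.67 to 422.2 ± 3.83 CPM (log2 -0.26, edgeR adjusted p = 0.00189; SD, n = 3 each). Without control replicate 2 the list had 5 genes lower, and without control replicate 1 it had 2 higher. LMAN1, the export receptor known for carrying alpha-1-antitrypsin, was at 215.0 ± 24.3 and 221.6 ± 4.51 CPM (log2 0.044, edgeR adjusted p = 0.774), and SURF4, another cargo receptor, at 763.0 ± 16.0 and 701.9 ± 5.46 CPM (log2 -0.12, edgeR adjusted p = 0.107). Neither passed.

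Of 24 regulators of hepatic transcription, 23 were tested, with 1 higher and 5 lower (26.1% against 8.02% of all genes, median log2 0.0097). NR1H4, the bile acid receptor FXR, fell by 0.61 on the log2 scale (edgeR adjusted p = 3.26e-05), and passed in all 16 alternatives. FOXA2 and FOXA1, pioneer factors of liver enhancers, each fell by 0.25 on the log2 scale (edgeR adjusted p = 0.0141 and 0.0358), and CEBPB, an acute-phase activator, rose by 0.30 (edgeR adjusted p = 0.0132). The count of falls was 1 without any 1 HK1-overexpressing replicate and 2 without control replicate 3, and the rise was lost in those same 4 fits. Without control replicate 1 the list had 4 genes higher, and with library totals only it had 3 higher and 2 lower.

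HNF4A was at 155.0 ± 4.85 and 156.2 ± 3.87 CPM (log2 0.011, edgeR adjusted p = 0.924) and CEBPA at 81.9 ± 7.64 and 74.7 ± 5.22 CPM (SD, n = 3 each; log2 -0.13, edgeR adjusted p = 0.318). Neither passed. Of 9 hepatocyte markers 6 fell, as AGT did, and 0 rose (66.7% against 8.02% of all genes called, and 4.15% of all genes lower). RBP4, APOB and HNF4A did not pass. The summed level of the 9 was 13732 to 14634 CPM in controls and 10708 to 11045 CPM in HK1-overexpressing libraries. The part of such a shift in the level of AGT was not tested.

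Within 500 kb of the cluster, 42 further genes were counted, of which 4 were tested. IFI27L2, which is also on the alternate sequence, rose from 0.343 ± 0.307 to 1.38 ± 0.202 CPM (SD, n = 3 each; log2 2.01, edgeR adjusted p = 0.0113), with 1 to 11 counts in controls and 25 to 33 in HK1-overexpressing libraries. The call was lost without HK1-overexpressing replicate 1 or 2. DDX24, DICER1 and ENSG00000294537 did not pass (edgeR adjusted p = 0.818, 0.933 and 0.412).

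Levels were set in order between genes by CPM per kilobase of exon as listed in the table. AGT came first at 36.2 CPM per kb (40.2 ± 0.564 in controls and 32.3 ± 0.150 in HK1-overexpressing libraries), then SERPINA1 at 24.8 (29.2 ± 4.24 and 20.5 ± 2.44), SERPINA5 at 8.12, SERPINA4 at 1.30, SERPINA6 at 1.197, SERPINA7 at 0.476, SERPINA11 at 0.111, SERPINA10 at 0.0113 and SERPINA3 at 0.00316 CPM per kb. The ranges over the 6 libraries overlapped for AGT and SERPINA1, SERPINA4 and SERPINA6, SERPINA6 and SERPINA7, SERPINA7 and SERPINA11, and SERPINA10 and SERPINA3, where the ranges span both groups. Within a library AGT was above SERPINA1, and SERPINA7 above SERPINA11, in 6 of 6. SERPINA4 was above SERPINA6 in 3 of 6, SERPINA6 above SERPINA7 in 4 of 6 and SERPINA10 above SERPINA3 in 5 of 6. The range of SERPINA5 overlapped that of neither neighbour.

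The order at the top depended on the length used. The table's length counts the alternate sequence again, and over chromosome exons alone SERPINA1 was first at 46.0 and AGT second at 36.2 CPM per kb, with SERPINA1 above AGT in 6 of 6 libraries. With the longest coding transcript of GENCODE release 29 as the length, AGT was at 201.0, SERPINA1 at 63.9, SERPINA5 at 13.0 and SERPINA6 at 2.89 CPM per kb, ahead of SERPINA4 at 1.29. By table length AGT made up 48.0% to 52.5% of the family's summed CPM per kb in a library, SERPINA1 29.5% to 38.8% and SERPINA5 8.89% to 13.3%.

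Counted together and not per length, the 9 genes held 763.0, 829.3 and 848.7 CPM in control replicates 1, 2 and 3 and 659.9, 630.1 and 619.4 CPM in HK1-overexpressing replicates 1, 2 and 3. They took 0.0756% to 0.0834% of all counts in controls and 0.0628% to 0.0668% in HK1-overexpressing libraries. The groups did not overlap, and nearly all of the sum came from AGT and SERPINA1. Among controls the sum was lowest in replicate 1, where SERPINA1 was lowest too, while AGT varied little.

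**Figure D4:**
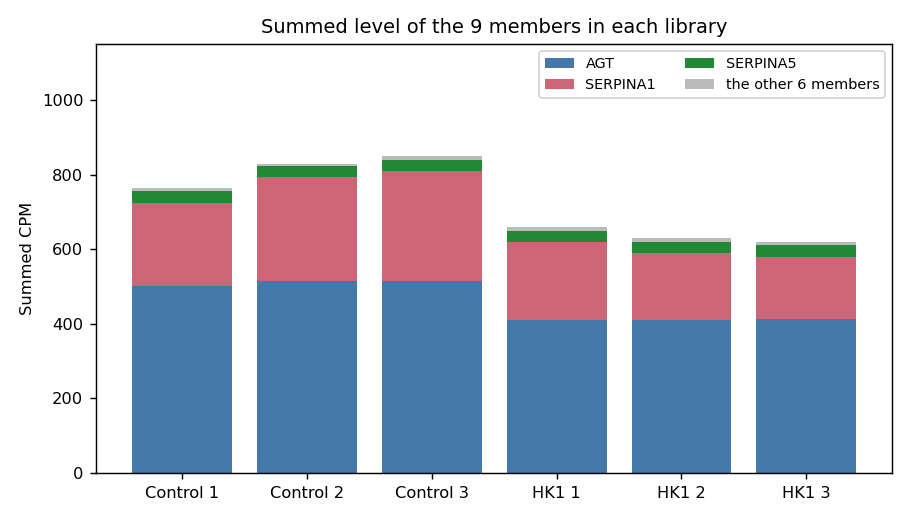
Summed CPM of the 9 genes in each library, split into AGT, SERPINA1, SERPINA5 and the other 6 members. The control libraries reach 763.0 to 848.7 CPM and the HK1-overexpressing libraries 619.4 to 659.9 CPM, and since the values are not per length, the heights of different genes are not comparable.

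Ratios of counts within a library compare 2 genes without any scaling between libraries. Of 15 pairs among the 6 tested genes, 4 had groups that did not overlap, and each of these had an exact two-sided permutation p of 0.1, the smallest that 3 against 3 allows, and an adjusted p of 0.3. The log2 ratio of SERPINA5 to AGT was -4.07 ± 0.116 in controls and -3.75 ± 0.0181 in HK1-overexpressing libraries (SD, n = 3 each), a difference of 0.31. SERPINA4 to SERPINA5 differed by -0.65, SERPINA5 to SERPINA7 by 0.65 and SERPINA1 to SERPINA6 by -3.31, the last with a control SD of 2.85. SERPINA1 to AGT was -0.955 ± 0.199 in controls and -1.15 ± 0.174 in HK1-overexpressing libraries, and those groups overlapped (difference -0.19, exact permutation p = 0.2, adjusted p = 0.3). None of the 15 ratios passed.

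For the 3 members with a mean of at least 10 CPM, the genes of most similar pattern were taken as those at the smallest root mean square distance of centred log2 CPM over the 6 libraries, among 9443 genes. For AGT these were POLA1, CTPS1 and FADS1, at distances of 0.0210, 0.0211 and 0.0213. POLA1 went from 81.4 ± 0.731 to 66.0 ± 0.353 CPM (SD, n = 3 each). For SERPINA5 they were BSDC1, NFE2L1 and ST3GAL2, at 0.0159, 0.0161 and 0.0173. For SERPINA1 they were LINC02331, CPB2 and MT1E, at 0.0924, 0.0983 and 0.1. The distance is not scaled by a gene's own spread, so it cannot be compared between members. That spread in log2 among controls was 0.217 for SERPINA1, 0.102 for SERPINA5 and 0.0203 for AGT. The libraries are the same for all of these genes, and the distances carry no test.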

How the data were processed

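The authors deposited raw counts, which per the file headers were made with featureCounts 1.5.3 from read pairs over exons, 1 row per gene name. They were counted on GENCODE release 47, with alternate sequences and patches included, per the file headers. The header's command sets no option for strand, for reads with several places or for overlapping genes. The build hg38 and the tools Trim Galore and Subread, with no version, come from lists per the submitters' processing notes. The table's other deposited column used here, the exon length, includes alternate sequences. Another column of the same table holds counts like the rest and was tested to do so. RNA was extracted with TRIZOL and made into libraries with a stranded mRNA kit, per the labels' protocols.

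Genes were kept by filterByExpr and compared by the robust quasi-likelihood test of edgeR 4.0.16 in R 4.3.3, with TMM factors, no term beside group and Benjamini-Hochberg adjustment over 16734 genes at 0.05. CPM is the count divided by the library total times its TMM factor, scaled to 1e6. The SE was taken from the unshrunken coefficient and the F statistic, and fold intervals made from it are approximate. glmTreat tested against a fold of 1.5. Intervals of pooled counts are exact, and like the limit of 3 counts cover counting error only, since PCR copies are not independent molecules. Alternatives were other size factors, HK1 removed, other filters, DESeq2 1.42.0, limma-voom (limma 3.58.1), no robust dispersion, a replicate block, another threshold, another fold and each library left out in turn; 2 other gene lengths were added after seeing the data. The test was tried on simulated data. Of 50 genes seeded at each fold among 16462, it recovered 52% at 1.25-fold and 96% at 1.5-fold, with 12 false calls. Seeded genes had a control mean of at least 5 CPM, and SERPINA4, SERPINA6 and SERPINA7 lay below that. Both groups were simulated with the same spread for a gene, whereas the real controls differed more among themselves. These recoveries therefore do not apply to those 3 members, and the unequal spread limits them for the other members too.

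The members, gene lists and tests were chosen with earlier results of these data known. All 9 members are named, with HK1, up to 4 called genes of smallest p per list (or the best 2 as values where fewer were called), HNF4A, CEBPA, CEBPB, LMAN1 and SURF4, called neighbours of the cluster and 3 genes of most similar pattern. A few genes eligible by this rule are left out here. Other genes were named after their values were seen, among them those at or near 0, overlapping genes, AGTR1, F10, RBP4, APOB, KRT19, the nuclear receptors, SERPING1 and SERPINF2. Promoter sequences are from RefSeq (GRCh38.p14). Protein sequences were not used here.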

Additional observations from a re-analysis of the deposited data

How the results depend on the processing

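AGT kept its direction and its call in all 16 alternatives. The count of members called, and of members called lower, was 1 in the reported fit and 2 with no filter, with a mean CPM of at least 5, with DESeq2, with limma-voom and with no robust dispersion, where SERPINA1 joined AGT. It ran from 1 to 2 when libraries were left out in turn, and members called higher ran from 0 to 1, the 1 being SERPINA6 without control replicate 3. The sign of SERPINA5 turned with library totals only (log2 0.032), no filter (0.0062) and a mean CPM of at least 5 (0.0075), and leaving out libraries gave -0.0621 to 0.0396. The sign of HNF4A turned without control replicate 2 and without HK1-overexpressing replicate 3, and that of LMAN1 without control replicate 2. Leaving out libraries gave -0.0074 to 0.0403 for HNF4A and -0.0426 to 0.108 for LMAN1. All genes called numbered 1342, 576 at an adjusted p threshold of 0.01, and 536 to 2257 when libraries were left out in turn, the highest without control replicate 1; of the 6 libraries, all but control replicate 2 moved the count by over 1.5 times. Against the order of levels per kb of table length, 2 members changed place in CPM without the length, 4 over chromosome exons only and 2 with the longest coding transcript. Deviations of same-numbered libraries correlated at -0.0414, 0.059 and -0.219, and those of differently numbered ones at -0.0863 to 0.196. With 3 libraries per group these values cannot settle whether replicate numbers pair the libraries. With the replicate number as a block 1074 genes were called, and AGT was still the only member called. The cause of these shifts was not tested, apart from the lengths, which set the order by construction. Depth limits SERPINA3, SERPINA10 and SERPINA11, which had under 10 counts in every library. SERPINA7 had no adjusted p from DESeq2, and SERPINA4, SERPINA6 and SERPINA7 were removed by the stricter filter.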

Other observations

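Genes of the alternate sequence around SERPINA6 differed from library to library in their own ways. ITPK1, chosen after its values were seen, had 21, 20 and 20 counts in controls, against 63, 59 and 74 in HK1-overexpressing libraries, and rose by 1.47 on the log2 scale (edgeR adjusted p = 0.000259). BTBD7, also chosen so, had 2, 2 and 27 counts in controls, against 22, 20 and 4 in HK1-overexpressing libraries. SERPINA6 was low in control replicates 1 and 2 as well, but DDX24 was highest in control replicate 2 and lowest in HK1-overexpressing replicate 1. Of the 20 tested genes with the widest spread of log2 level among controls, 14 had exons on an alternate sequence, against 4.27% of all tested genes. SERPINA1, on the same alternate sequence, spread by 0.217 on that scale and SERPINA6 by 1.76. Why counts on alternate sequences varied was not tested.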
